A study of Mus musculus with 10 samples.

Results

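The interleukin, tumor necrosis factor (TNF) and colony-stimulating factor (CSF) families were followed across the SAH, Sham and Naive groups. They comprised every gene name in the count tables that begins as Il followed by a digit, as Tnfsf or Tnfrsf followed by a digit, or as Csf1 to Csf3, together with Tnf, Lif, Lifr and Osm. This rule on names gave 126 members of 24391 gene names, and it used no measured value. A count in at least 1 mouse was found for 108 of them, and 18 were at 0 in all 10 mice. Total RNA depleted of ribosomal RNA was sequenced from the whole hippocampus of both sides, 1 library per mouse, 4 days after surgery. SAH mice (n = 4) had a subarachnoid hemorrhage, in which a filament passed up the artery punctured the circle of Willis on 1 side, and they were kept only if cerebral blood flow dropped sharply at that moment. Sham mice (n = 3) had the filament advanced with no puncture, and Naive mice (n = 3) had no surgery. All mice were male, 10 to 14 weeks old, of the strain the study's methods spell C56BL/6J, and came from 1 batch of animals. Surgery was done under isoflurane, and the labels give no drug treatment. Sham and Naive mice together are called control (n = 6), as the study pooled them.

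Cytokines of these families are secreted or membrane-bound signals between cells, and most of them act at very low amounts. The IL-1, IL-17 and TNF families feed mainly into NF-kappaB and MAP kinases. By contrast, the IL-4, IL-6, IL-10 and CSF2 groups signal through receptor-bound JAK kinases and STAT factors, and CSF1 acts on a receptor tyrosine kinase. In the brain, microglia depend on the CSF1 receptor, astrocytes and oligodendrocytes hold IL-33 in their nuclei, and several members act as shared subunits, so that a single receptor chain serves several ligands.

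Between 19743388 and 27254655 counts per mouse were available. The 126 members together took 0.0935% to 0.1005% of the counts of a SAH mouse and 0.0881% to 0.0915% of those of a control mouse, and 88 to 93 members had a count in each mouse. Levels are given as CPM (counts relative to each library's total, with TMM scaling) or, where genes are compared with each other, as RPKM (CPM per 1000 bases of exon). The 4 markers of the dentate gyrus and hippocampus had a count in every library and summed to 428.8 to 480.9 CPM in SAH and 398.1 to 460.6 CPM in control. The 9 choroid plexus markers, a tissue that borders the hippocampus, set 3 libraries apart, with 1270 CPM in SAH mouse 3, 889.2 CPM in SAH mouse 4 and 852.8 CPM in Sham mouse 7 against 48.8 to 225.5 CPM in the other libraries. In whole tissue, more cells of a type and more RNA per cell cannot be told apart.

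A small number of these genes, receptors and ligands among them, were abundant in hippocampus, and many ligands were barely detected. At least 1 RPKM was reached by 32 members and at least 0.1 RPKM by 70. The highest level was that of Tnfrsf21 (death receptor 6), with 37.4 ± 2.03 RPKM (SD, n = 10) over all mice, followed by Csf1r, the receptor of CSF1 and IL-34 on microglia and other macrophages, with 32.2 ± 4.18 RPKM. Their means were 38.2 and 29.6 RPKM in control but 36.2 and 36.1 RPKM in SAH, where the gap was smaller than either SD. The leading ligands were Il34, the other ligand of the CSF1 receptor, with 21.8 ± 1.35 RPKM, the nuclear alarmin Il33 with 18.2 ± 2.57 RPKM, and Il18, a cytokine released by the inflammasome, with 17.2 ± 1.20 RPKM. Il6st, the gp130 chain shared by the IL-6 group, had 16.9 ± 1.22 RPKM, Tnfrsf19 had 15.3 ± 0.645 RPKM and Il16, a precursor of a T cell attractant, had 9.91 ± 0.597 RPKM. The levels of Il33, Il18 and Il6st differed by less than the spread of Il33 over the 10 mice.

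**Figure D1:**
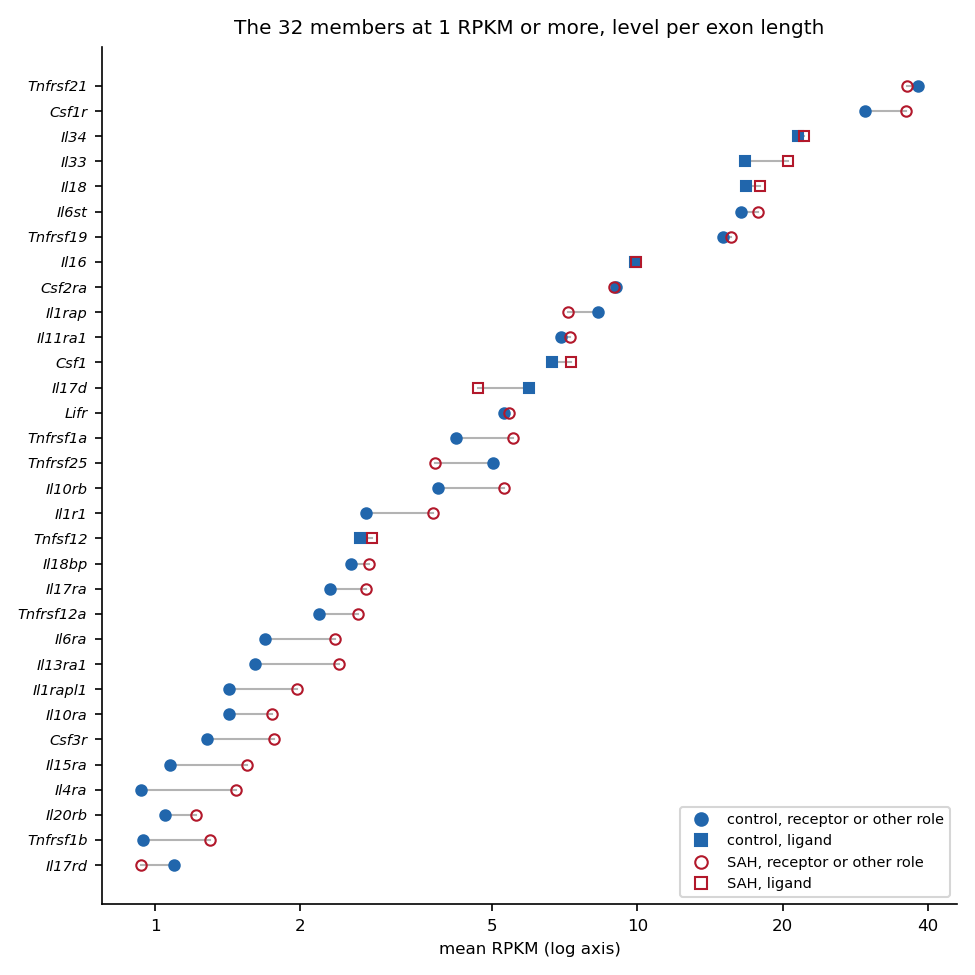
Mean RPKM of the 32 members at 1 RPKM or more, on a log axis, in control (filled, blue, n = 6) and SAH (open, red, n = 4), with squares for ligands and circles for receptors and other roles. Tnfrsf21, Csf1r and Il34 lead, and the SAH mark of Csf1r lies to the right of its control mark.

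The classical inflammatory ligands were at or near the limit of counting at 4 days. Tnf gave 0, 3, 3 and 1 counts in the SAH mice, 1, 0 and 0 in the Sham mice and 1, 0 and 0 in the Naive mice. Il6 gave 1, 1, 2 and 2 counts in the SAH mice, 0, 0 and 0 in the Sham mice and 1, 3 and 0 in the Naive mice. Il1b, the inducible IL-1 ligand, gave 9, 7, 5 and 6 counts in the SAH mice, 3, 8 and 2 in the Sham mice and 2, 2 and 3 in the Naive mice. All 3 fell below the filter on low counts and were not tested, and SAH and control mice overlapped in each. Il10, Csf2 and Csf3 were at 0 in all 10 mice, which allows up to 3 counts per library, or 0.110 to 0.152 CPM. Il4 was at 0 in the SAH mice and at 0 to 1 counts in control, Il13 was at 0 in all but Naive mouse 10, with 1 count, Il17a was at 0, and Osm (oncostatin M) had 1 to 2 counts in SAH and 1 to 4 in control. Such limits cover counting error only.

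SAH was compared with control to ask which cytokine and receptor genes changed with the hemorrhage. By edgeR's quasi-likelihood test, 8 of the 60 tested members passed an adjusted p of 0.10, adjusted over all 14993 genes tested. These were 13.3% of the tested members, and 4.68% of all tested genes passed. Higher in SAH were Il13ra1, Csf1r, Il17rc, Il10rb, Il33, Tnfrsf1a and Tnfrsf1b (7 of 60, background 3.13%), and lower was Il1rap (1 of 60, background 1.54%). All but Il33 are receptor chains. The median log2 fold change of the 60 was 0.15, against −0.0024 over all tested genes, and 47 of the 60 were above 0, against 49.1% of all genes. At an unadjusted p under 0.05 there were 25 of the 60, 23 of them higher, where 17.0% of all tested genes reached this level.

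**Figure D2:**
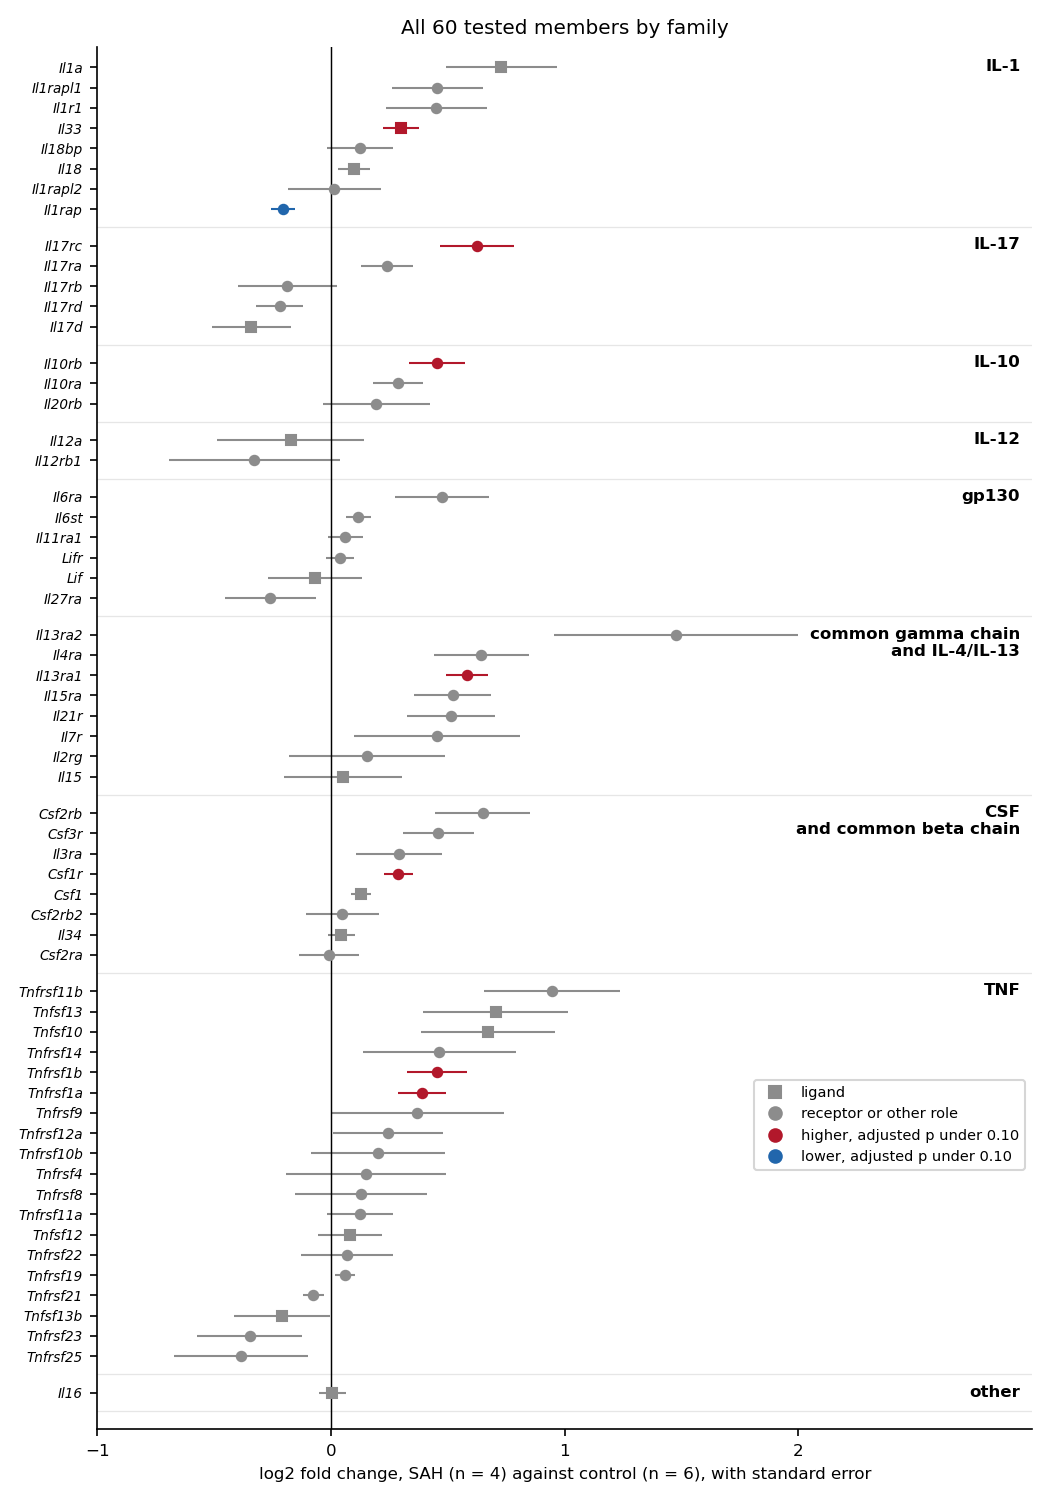
Log2 fold change of each of the 60 tested members in SAH (n = 4) against control (n = 6), with its standard error, grouped by family. Red marks the 7 members higher at an adjusted p under 0.10 and blue the 1 lower, and most marks lie to the right of 0, with the widest errors at the members of few counts such as Il13ra2.

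By role, 1 of the 14 tested ligands was higher and 0 lower, with a median log2 fold change of 0.066. The 43 tested receptors and decoy receptors included 6 higher and 1 lower, with a median of 0.24. Over all tested genes 3.13% were higher and 1.54% lower, and the difference between ligands and receptors was not tested. Of the 54 ligand genes 15 were at 0 in every mouse, against 2 of the 64 receptor and decoy receptor genes. Among the 3 other tested members, the soluble inhibitor Il18bp and the synaptic homologs Il1rapl1 and Il1rapl2, none passed the test, and their log2 fold changes were 0.014 to 0.45. All SAH mice exceeded all control mice for 4 tested members, Il13ra1, Il17rc, Csf1 and Il21r (background 2.83%), and below for Il1rap (background 2.37%). Levels of the called members in each mouse follow by family.

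**Figure D3:**
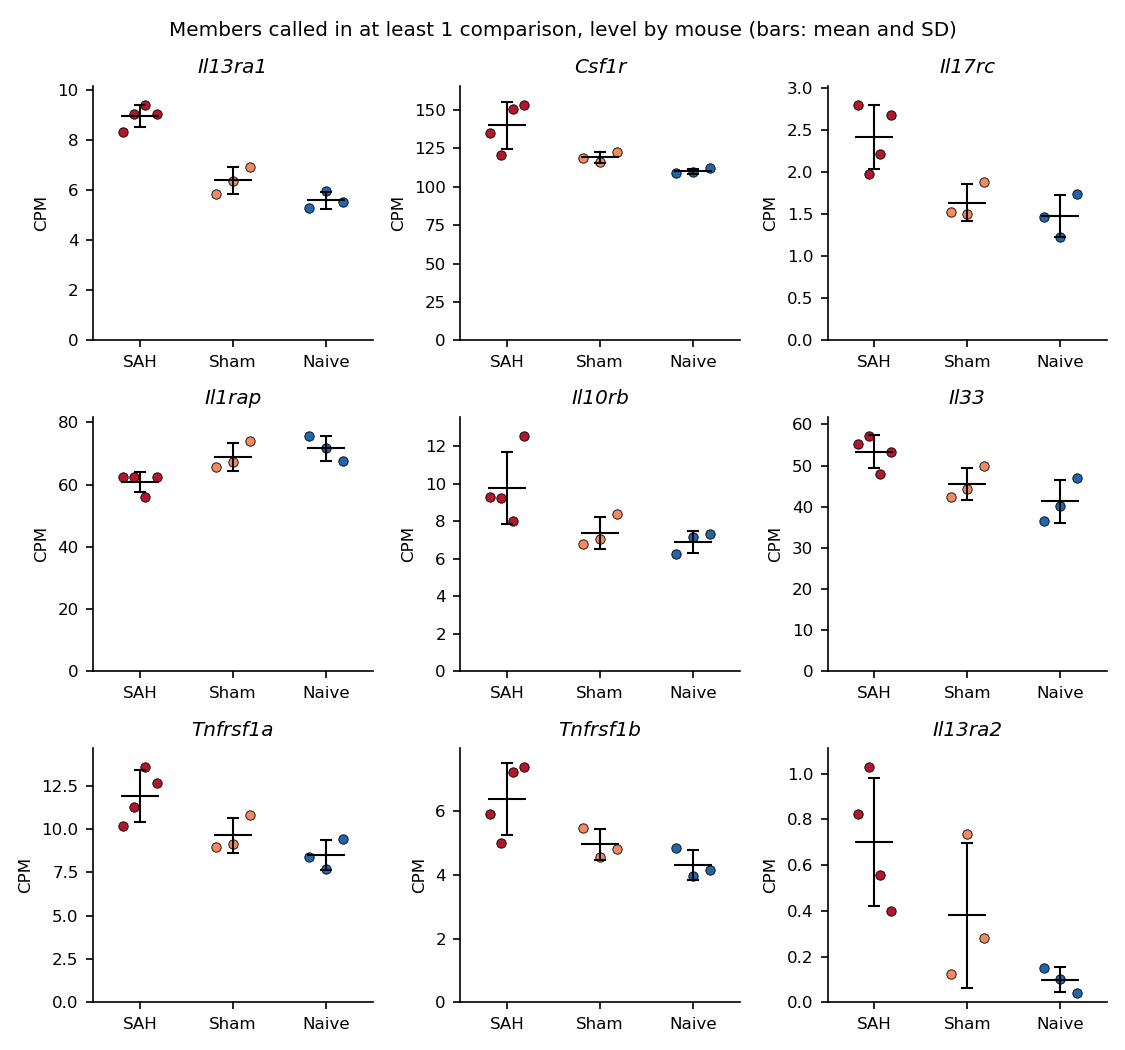
CPM in each mouse of the 9 members called in at least 1 comparison, by group (SAH n = 4, Sham n = 3, Naive n = 3), with the group mean as a wide line and the SD as bars, each axis from 0. SAH and the other mice do not overlap for Il13ra1 and Il17rc, and Il1rap is the member that is lower in SAH.

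A receptor chain of IL-4 and IL-13 had the smallest adjusted p of the members. Il13ra1, the chain that pairs with Il4ra to bind both cytokines, lies on chromosome X, 33652103 to 33711256 (mm9) and had 8.32, 9.05, 9.40 and 9.03 CPM in the SAH mice, 5.86, 6.36 and 6.92 CPM in the Sham mice and 5.27, 5.96 and 5.52 CPM in the Naive mice. All SAH mice were above all other mice, and Sham mice were above Naive mice except for Sham mouse 5. The mean was 8.95 ± 0.454 CPM in SAH (SD, n = 4), against 5.98 ± 0.594 CPM in control (SD, n = 6), a rise of 49.6% (log2 fold change 0.58, standard error 0.09, adjusted p = 0.0045). Its partner Il4ra had 6.87, 5.70, 11.7 and 5.76 CPM in the SAH mice, 5.90, 4.30 and 3.62 CPM in the Sham mice and 4.93, 4.01 and 5.77 CPM in the Naive mice. SAH mouse 3 stood highest, SAH mice 2 and 4 were below Sham mouse 5, and the difference did not pass the test (log2 fold change 0.64, standard error 0.20, adjusted p = 0.124). Without SAH mouse 2 it was called (adjusted p = 0.070), and leaving out SAH mouse 3 gave a log2 fold change of 0.36. The study named Il4ra, Il13ra1, Il10rb and Csf1r from these same mice, so their direction here is not independent evidence.

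Il13ra2, a decoy receptor that binds IL-13 with little signaling, was among the members with few counts. It had 0.822, 1.03, 0.556 and 0.400 CPM in the SAH mice, 0.124, 0.735 and 0.282 CPM in the Sham mice and 0.150, 0.103 and 0.0424 CPM in the Naive mice. The Naive mice and Sham mouse 5 were the lowest, and Sham mouse 6 was within the range of SAH. Against control its log2 fold change of 1.48 (standard error 0.52) was the largest of the 60 and did not pass (adjusted p = 0.165). Among receptors of the common gamma chain group, Il21r had 1.95 to 2.32 CPM in SAH and 0.978 to 1.87 CPM in control and its groups did not overlap, although it did not pass (log2 fold change 0.51, standard error 0.19, adjusted p = 0.180). Il15ra, the presenting chain of IL-15, had 2.28 to 4.04 CPM in SAH and 1.73 to 2.52 CPM in control (log2 fold change 0.52, standard error 0.16, adjusted p = 0.122). All 8 tested members of this group had a log2 fold change above 0 (median 0.52, range 0.051 to 1.48), and 1 passed. Il21r and Il15ra, and elsewhere Tnfrsf19, Csf2rb, Csf3r, Csf2ra, Il6ra, Il17d, Il18bp, Il18rap, Il31ra, Il1rapl1 and Il1rapl2, were chosen for mention after their values were seen.

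The CSF1 axis is the growth factor pathway of microglia and macrophages. Csf1r had 135, 121, 151 and 153 CPM in the SAH mice, 119, 116 and 123 CPM in the Sham mice and 109, 109 and 112 CPM in the Naive mice. SAH mouse 2 lay below Sham mouse 7, and the other SAH mice were above all control mice. The mean was 140.0 ± 15.1 CPM in SAH (SD, n = 4), against 115 ± 5.44 CPM in control (SD, n = 6), a rise of 21.99% (log2 fold change 0.29, standard error 0.062, adjusted p = 0.026). Without SAH mouse 4 the adjusted p was 0.107. The call was also lost with a choroid plexus covariate and in the mice with low choroid plexus markers (log2 fold change 0.18 in the latter).

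Of its ligands, Csf1 had 31.5, 31.4, 32.5 and 33.3 CPM in the SAH mice, 28.7, 28.9 and 30.1 CPM in the Sham mice and 30.3, 29.6 and 29.2 CPM in the Naive mice. Each SAH mouse exceeded each control mouse, by a small margin, and the difference did not pass (log2 fold change 0.13, standard error 0.044, adjusted p = 0.154). Il34 overlapped between groups, at 37.9 to 45.2 CPM in SAH and 37.1 to 43.1 CPM in control (log2 fold change 0.044, standard error 0.059, adjusted p = 0.737). Csf2rb, the common beta chain of the IL-3, IL-5 and CSF2 receptors, had 1.43 to 2.83 CPM in SAH and 1.03 to 1.53 CPM in control (log2 fold change 0.65, standard error 0.20, adjusted p = 0.118), whereas the CSF2 binding chain Csf2ra had 13.1 to 20.6 CPM in SAH and 13.2 to 19.74 CPM in control (log2 fold change −0.0098, standard error 0.13, adjusted p = 0.980). The neutrophil growth factor receptor Csf3r had 5.52 to 10.1 CPM in SAH and 4.59 to 5.90 CPM in control (log2 fold change 0.46, standard error 0.15, adjusted p = 0.138). Leaving out SAH mouse 4 gave it a log2 fold change of 0.24. Of the 8 tested members of this group 7 had a log2 fold change above 0 (median 0.21) and 1 passed.

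Markers of macrophages at the brain borders were higher in SAH when summed. Their 7 markers summed to 18.9 to 24.2 CPM in SAH and 6.84 to 12.3 CPM in control, without overlap, and 5 of the 7 were higher by the same test. The 8 microglia markers summed to 290.9 to 367.5 CPM in SAH and 292.8 to 329.3 CPM in control, with 1 higher. Of the 6 monocyte markers 5 were in the tables, and Ccr2, Ly6c2 and Plac8 were kept out of the test. Their means were 0.803, 0.137 and 0.125 CPM in SAH and 0.139, 0.0195 and 0.0689 CPM in control. Of these, only Ly6c2, with 0 to 5 counts, did not overlap between SAH and control. The study called Ccr2 higher from these same mice and reported it higher by quantitative PCR in other mice. The sum of the 5, 105.0 to 143.6 CPM in SAH and 75.3 to 102.7 CPM in control, was nearly all Vcan and Fn1, genes that other cells express too. Of these 2, the only tested markers of the list, Fn1 passed as higher. The 5 neutrophil markers in the tables summed to 0.44 to 1.26 CPM in SAH and 0.23 to 0.97 CPM in control, and the T cell, NK cell and B cell lists summed to at most 2.52 CPM in any mouse. Most of the T cell sum was Lck, with means of 1.57 CPM in SAH and 1.66 CPM in control. Endothelial markers (6 genes, 3 higher) summed to 99.9 to 203.5 CPM in SAH and 85.6 to 120.7 CPM in control, those of fibroblasts and leptomeninges (6 genes, 5 higher) to 91.2 to 171.5 and 84.0 to 115.6 CPM, those of astrocytes (5 genes, 1 higher) to 1903 to 2607 and 1671 to 1943 CPM, and those of mature oligodendrocytes (6 genes, all lower) to 2301 to 2957 and 3365 to 4583 CPM. None of the tested markers of dendritic cells (2), oligodendrocyte precursors (3), neurons (5) or red cells (1) passed, and of the 4 dentate and hippocampal markers 1 was higher. The globin genes Hba-a1, Hbb-b1 and Hbb-b2 were at 0 in all mice, so the red cell list says little about blood content. The part of these cell types in the changes of the members was not tested.

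Both TNF receptors were higher in SAH, with their ligand barely counted. Tnfrsf1a (TNF receptor 1, found on most cell types; chromosome 6, 125299741 to 125312501) had 10.2, 11.3, 13.6 and 12.6 CPM in the SAH mice, 8.96, 9.12 and 10.8 CPM in the Sham mice and 8.39, 7.71 and 9.42 CPM in the Naive mice. SAH mouse 1 was below Sham mouse 7, and otherwise SAH mice were above control (log2 fold change 0.39, standard error 0.10, adjusted p = 0.064). Tnfrsf1b (TNF receptor 2, carried largely by immune cells and endothelium; chromosome 4, 144802271 to 144836773) had 5.90, 5.00, 7.22 and 7.39 CPM in the SAH mice, 5.49, 4.56 and 4.83 CPM in the Sham mice and 4.85, 3.96 and 4.16 CPM in the Naive mice. SAH mouse 2 fell within the control range (log2 fold change 0.45, standard error 0.13, adjusted p = 0.087). Each of these calls was lost in 7 of the 10 fits that left out a mouse. They were also lost with a choroid plexus covariate (log2 fold changes 0.22 and 0.28) and in the mice with low choroid plexus markers (0.30 and 0.23).

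Tnfrsf11b (osteoprotegerin, a soluble decoy receptor for Tnfsf10 and Tnfsf11) had 1.64, 1.18, 0.909 and 0.680 CPM in the SAH mice, 0.784, 0.551 and 0.523 CPM in the Sham mice and 0.564, 0.257 and 0.679 CPM in the Naive mice. SAH mouse 4 overlapped with control, and the difference did not pass (log2 fold change 0.95, standard error 0.29, adjusted p = 0.111); without SAH mouse 4 it did (log2 fold change 1.13, adjusted p = 0.090). The ligands Tnfsf10 (TRAIL, which can trigger apoptosis) and Tnfsf13 (APRIL, which supports B lineage cells) did not pass. Tnfsf10 had 1.16 to 4.68 CPM in SAH and 1.32 to 2.17 CPM in control (log2 fold change 0.67, standard error 0.29, adjusted p = 0.250; log2 fold change 0.28 without SAH mouse 4), and Tnfsf13 had 0.455 to 0.759 CPM in SAH and 0.154 to 0.509 CPM in control (log2 fold change 0.70, standard error 0.31, adjusted p = 0.265). Tnfsf13 shares its locus with the read-through transcript Tnfsfm13, and reads on both were left out by the authors' counting, so its level is uncertain. The most abundant TNF receptors did not pass either, with Tnfrsf21 at 129.6 to 135 CPM in SAH and 130.2 to 151 CPM in control (log2 fold change −0.077, standard error 0.045, adjusted p = 0.420) and Tnfrsf19 at 72.1 to 77.1 CPM in SAH and 68.3 to 77.1 CPM in control (log2 fold change 0.06, standard error 0.042, adjusted p = 0.497). Of the 19 tested TNF family members, 15 had a log2 fold change above 0 (median 0.15), 2 passed as higher and 0 as lower.

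In the IL-1 family the ligand Il33 passed as higher and a shared receptor chain as lower. Il33, an alarmin released from damaged cells (chromosome 19, 29999604 to 30035205), had 55.2, 57.2, 47.9 and 53.2 CPM in the SAH mice, 42.3, 44.3 and 50.0 CPM in the Sham mice and 36.6, 40.3 and 47.0 CPM in the Naive mice. SAH mouse 3 was below Sham mouse 7, and the other SAH mice were above control. Its mean was 53.4 ± 3.99 CPM in SAH (SD, n = 4), against 43.4 ± 4.79 CPM in control (SD, n = 6) (log2 fold change 0.30, standard error 0.079, adjusted p = 0.064). The call was lost in 7 of the 10 fits that left out a mouse and with the choroid plexus covariate (log2 fold change 0.28).

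Il1rap, the accessory chain that IL-1, IL-33 and IL-36 receptors need to signal (chromosome 16, 26581791 to 26725233), had 62.6, 62.6, 56.1 and 62.6 CPM in the SAH mice, 65.5, 67.3 and 73.9 CPM in the Sham mice and 75.7, 71.7 and 67.7 CPM in the Naive mice. Every SAH mouse was below every control mouse, and SAH mouse 3 was the lowest. It fell by 13.2% (log2 fold change −0.20, standard error 0.052, adjusted p = 0.057). This call was lost in 5 of the 10 fits, with the covariate (log2 fold change −0.20) and in the mice with low choroid plexus markers (−0.15). The chain that binds IL-33, Il1rl1 (ST2), was kept out of the test with 6, 10, 8 and 5 counts in the SAH mice, 7, 6 and 5 in the Sham mice and 5, 4 and 5 in the Naive mice. The IL-1 binding chain Il1r1 had 11.7, 18.5, 30.8 and 14.9 CPM in the SAH mice, 9.86, 14.3 and 17.6 CPM in the Sham mice and 13.95, 13.7 and 13.4 CPM in the Naive mice. SAH mouse 3 was the highest and SAH mouse 1 was below most control mice (log2 fold change 0.45, standard error 0.22, adjusted p = 0.307). Leaving out SAH mouse 3 gave it a log2 fold change of 0.13.

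Il1a, the IL-1 ligand that also serves as an alarmin, had 0.772 to 1.40 CPM in SAH and 0.411 to 0.825 CPM in control and did not pass (log2 fold change 0.73, standard error 0.24, adjusted p = 0.135). Il18 had 14.2 to 16.5 CPM in SAH and 12.9 to 15.5 CPM in control (log2 fold change 0.10, standard error 0.069, adjusted p = 0.503), and Il18bp, the protein that neutralizes IL-18, had 3.19 to 4.84 CPM in SAH and 3.22 to 4.44 CPM in control (log2 fold change 0.12, standard error 0.14, adjusted p = 0.686). Il1rl2, the IL-36 receptor, was kept out of the test, with 6 to 13 counts in SAH and 6 to 8 in control. Of the 21 IL-1 family members 8 were tested, 7 had a log2 fold change above 0, 1 passed as higher and 1 as lower.

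Il17rc, which joins Il17ra to form the receptor of IL-17A and IL-17F (chromosome 6, 113421449 to 113433157), had 2.80, 1.99, 2.22 and 2.68 CPM in the SAH mice, 1.53, 1.51 and 1.89 CPM in the Sham mice and 1.47, 1.23 and 1.74 CPM in the Naive mice. The SAH mice were all above the control mice, although its level was low (log2 fold change 0.62, standard error 0.16, adjusted p = 0.056), and the call was lost in 6 of the 10 fits that left out a mouse. It was lost as well with the choroid plexus covariate (log2 fold change 0.55) and in the mice with low choroid plexus markers (0.66). Il17ra had 8.61, 9.71, 13.4 and 11.6 CPM in the SAH mice, 9.78, 8.46 and 9.25 CPM in the Sham mice and 9.48, 8.54 and 9.51 CPM in the Naive mice. SAH mice 1 and 2 were within the control range, and the difference did not pass (log2 fold change 0.24, standard error 0.11, adjusted p = 0.287; log2 fold change 0.13 without SAH mouse 3). Il17d, a ligand made in brain, had 3.33 to 7.83 CPM in SAH and 6.64 to 8.17 CPM in control (log2 fold change −0.34, standard error 0.17, adjusted p = 0.331), ranging from −0.52 without SAH mouse 1 to −0.16 without SAH mouse 3. Its sign changed in the mice with low choroid plexus markers. The IL-17 group was split, with 2 of its 5 tested members above 0 (median −0.19).

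Il10rb, the chain shared by the receptors of IL-10, IL-22 and type III interferons (chromosome 16, 91406480 to 91426079), had 9.28, 9.23, 8.03 and 12.6 CPM in the SAH mice, 6.77, 7.06 and 8.37 CPM in the Sham mice and 6.24, 7.15 and 7.34 CPM in the Naive mice. SAH mouse 4 was the highest, and SAH mouse 3 was below Sham mouse 7. It rose by 37.1% (log2 fold change 0.45, standard error 0.12, adjusted p = 0.064), a call lost in 6 of the 10 fits with a mouse left out and with the choroid plexus covariate. Its partner Il10ra had 5.33 to 6.72 CPM in SAH and 4.52 to 5.87 CPM in control (log2 fold change 0.29, standard error 0.11, adjusted p = 0.185). The receptor chains Il20ra and Il22ra1 had at most 4 counts in any mouse, and Il22 at most 1.

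None of the 6 tested members of the gp130 group passed. Il6st had 84.9 to 105 CPM in SAH and 83.7 to 92.5 CPM in control (log2 fold change 0.12, standard error 0.053, adjusted p = 0.288), and the IL-6 binding chain Il6ra had 4.93 to 11.6 CPM in SAH and 4.07 to 7.24 CPM in control (log2 fold change 0.47, standard error 0.20, adjusted p = 0.249). Leaving out SAH mouse 3, the log2 fold changes were 0.18 for Il6st, which then passed (adjusted p = 0.030), and 0.24 for Il6ra. Lifr, the receptor of LIF, had 53.0 to 62.7 CPM in SAH and 50.7 to 60.9 CPM in control (log2 fold change 0.038, standard error 0.06, adjusted p = 0.778), and Lif had 0.870 to 1.16 CPM in SAH and 0.805 to 1.43 CPM in control (log2 fold change −0.069, standard error 0.20, adjusted p = 0.889). Il16 differed by less than its standard error, at 45.5 to 51.9 CPM in SAH and 43.3 to 52.3 CPM in control (log2 fold change 0.0047, standard error 0.059, adjusted p = 0.980). Both tested members of the IL-12 group were below 0, at −0.17 and −0.33, and neither passed.

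Starts of 7 of the 8 called members were read from the mm9 genome, since members that change together may share sequence near the start. Both strands were searched for 3 patterns from 250 bases before to 50 bases after the start of each gene model, GAAANNGAA (the core of the interferon-stimulated response element), TTCNNNGAA (a STAT site) and the kappaB consensus. The first 2 both end in GAA and can overlap. Of 24181 promoters 8.23% held the first, 8.00% the second and 9.03% the third, and of 125 member windows 15, 14 and 19 did. Shown are the bases before the start, 5′ to 3′ on the gene's strand, of the call with the smallest adjusted p and of 2 called members with a match there, with the matched letters in capitals. The match next to the start of Tnfrsf1b is on the opposite strand and so reads as the reverse complement of GAAANNGAA.
Il13ra1, chrX:33651853-33652102, plus strand: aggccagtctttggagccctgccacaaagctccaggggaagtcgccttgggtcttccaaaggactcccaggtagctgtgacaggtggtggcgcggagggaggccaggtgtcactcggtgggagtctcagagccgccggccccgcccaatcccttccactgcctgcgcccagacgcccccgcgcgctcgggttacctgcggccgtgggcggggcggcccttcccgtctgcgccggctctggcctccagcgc
Tnfrsf1b, chr4:144836774-144837023, minus strand: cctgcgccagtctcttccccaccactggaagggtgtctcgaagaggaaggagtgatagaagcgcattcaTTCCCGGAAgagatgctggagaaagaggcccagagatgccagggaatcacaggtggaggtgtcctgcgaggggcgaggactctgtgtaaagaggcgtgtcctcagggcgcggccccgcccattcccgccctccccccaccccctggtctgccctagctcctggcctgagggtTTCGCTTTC
Tnfrsf1a, chr6:125299491-125299740, plus strand: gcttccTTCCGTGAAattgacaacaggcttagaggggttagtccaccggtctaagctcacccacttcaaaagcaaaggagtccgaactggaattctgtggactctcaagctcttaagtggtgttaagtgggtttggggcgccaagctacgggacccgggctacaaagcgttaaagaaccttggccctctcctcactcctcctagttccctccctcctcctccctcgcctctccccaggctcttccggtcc
In Tnfrsf1b the interferon pattern began −9 bases from the start and the STAT pattern at −181, and in Tnfrsf1a a STAT pattern began at −244. Il1rap held the interferon pattern from 21 bases after its start on, which is not shown. Csf1r, Il13ra1, Il17rc and Il33 held none of the 3 patterns in this window, and none of these 7 held the kappaB consensus. A match is a description of the letters and not a bound site.

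Among relatives under other symbols, 1 of 19 tested genes passed, out of a list of 30. It was Osmr, the oncostatin M receptor chain that pairs with Il6st, with 10.5 ± 3.96 CPM in SAH (SD, n = 4) and 5.62 ± 0.602 CPM in control (SD, n = 6) (log2 fold change 0.89, standard error 0.18, adjusted p = 0.018). The median of the 19 was 0.08. Neither this list nor the next was far from the 4.68% of all tested genes that passed. Of 47 signaling genes downstream of these receptors 46 were tested, with a median of 0.04, and 2 passed, both higher. These were Stat6, the STAT factor of the IL-4 and IL-13 receptors, with 9.94 ± 1.57 CPM in SAH (SD, n = 4) and 7.49 ± 0.516 CPM in control (SD, n = 6) (log2 fold change 0.41, standard error 0.10, adjusted p = 0.049), and Birc3, an inhibitor of apoptosis bound to TNF receptor complexes, with 2.30 ± 0.505 CPM in SAH (SD, n = 4) and 1.49 ± 0.198 CPM in control (SD, n = 6) (log2 fold change 0.61, standard error 0.17, adjusted p = 0.082). Every SAH mouse was above every control mouse for Osmr, Stat6 and Birc3, and also for Ngfr, which did not pass (background 2.83%). Cntf, a relative kept out of the test, went the other way. Its means were 0.066 CPM in SAH and 0.264 CPM in control, without overlap.

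The 3 groups were then compared in pairs from a fit of all 10 mice, to separate the hemorrhage from the surgery. SAH against Sham and SAH against Naive share the SAH mice, so their values are given side by side and are not independent. Of 63 members tested in this fit, 1 passed against Sham (Il13ra1, background 0.72%), and 6 passed against Naive (Il13ra1, Csf1r, Il33, Tnfrsf1a and Il13ra2 higher, Il1rap lower, background 2.99%). The median log2 fold change of the 63 was 0.18 in both, against −0.0019 and 0.00018 over all 15134 genes. Between Sham and Naive 0 passed (background 0.00661%), with 1 member at an unadjusted p under 0.05 and 0 called by DESeq2.

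Il13ra1 was higher by 0.49 against Sham (standard error 0.10, adjusted p = 0.071), by 0.68 against Naive (standard error 0.10, adjusted p = 0.0057), and Sham differed from Naive by 0.20 (standard error 0.11), all on the log2 scale. The call against Sham was lost in 7 of the 10 fits that left out a mouse, all except those without SAH mouse 1, 2 or 3, and without SAH mouse 2 Csf1r was called as well. Against Naive, leaving out a mouse gave between 1 and 8 called members, 1 without Naive mouse 8 or 9, and 3 without Naive mouse 10, SAH mouse 4 or Sham mouse 6. For Csf1r the log2 fold changes were 0.23 against Sham (adjusted p = 0.258) and 0.34 against Naive (adjusted p = 0.033). Il33 had 0.23 (adjusted p = 0.424) and 0.37 (adjusted p = 0.068), Tnfrsf1a 0.30 (adjusted p = 0.421) and 0.48 (adjusted p = 0.074), and Il1rap −0.18 (adjusted p = 0.361) and −0.23 (adjusted p = 0.095).

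Il13ra2 differed most between the controls. Its log2 fold change was 2.75 for SAH against Naive (with a standard error of 0.67, adjusted p = 0.063), against 0.85 for SAH against Sham (adjusted p = 0.617) and 1.90 for Sham against Naive (adjusted p = 1.000, the 1 member at an unadjusted p under 0.05). It had 17, 28, 11 and 10 counts in the SAH mice, 3, 20 and 7 in the Sham mice and 4, 2 and 1 in the Naive mice. The call against Naive was lost without any 1 of the 3 Naive mice. For the other 8 called members Sham lay between Naive and SAH in its mean, and the difference between Sham and Naive did not pass for any of them.

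**Figure D4:**
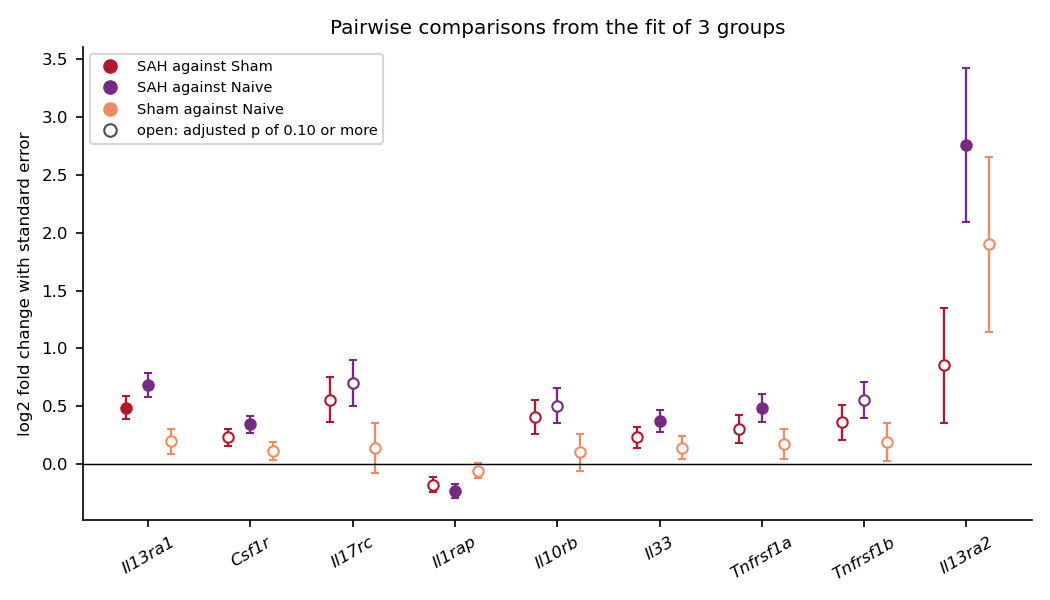
Log2 fold change with standard error of the 9 called members in SAH against Sham, SAH against Naive and Sham against Naive, from the fit of 3 groups. Filled marks passed an adjusted p of 0.10; Il13ra1 is filled against both Sham and Naive, and every mark of Sham against Naive is open.

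How far the calls rest on single mice was examined by leaving out each in turn. Only Il13ra1 passed in all 10 of these fits, with a log2 fold change between 0.55 and 0.63, and Csf1r passed in 9 (0.24 to 0.35). Il1rap passed in 5 (−0.22 to −0.17), Il10rb and Il17rc in 4 (0.31 to 0.54 and 0.55 to 0.71), and Il33, Tnfrsf1a and Tnfrsf1b in 3 (0.25 to 0.35, 0.33 to 0.46 and 0.37 to 0.56). Between 2 and 12 members passed, 2 on leaving out SAH mouse 4, or Naive mouse 8, or Naive mouse 9, 3 without Sham mouse 6, 4 without Sham mouse 5, 5 without Naive mouse 10, and 12 without SAH mouse 2. The calls over all genes moved as well, from 308 without SAH mouse 4 to 1093 without SAH mouse 2, against 701 with every mouse. All 8 kept their direction in each fit.

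With the mean log2 level of the choroid plexus markers as a covariate, Il13ra1 was the 1 member called (log2 fold change 0.49, adjusted p = 0.041), and 169 genes passed in place of 701. In the 2 SAH and 5 control mice whose choroid plexus markers summed to under 500 CPM, a choice made after the data were seen, 4 members and 330 genes in all passed, the members being Il13ra1 (log2 fold change 0.59, adjusted p = 0.010), Il33 (0.42, adjusted p = 0.010), Il10rb (0.43, adjusted p = 0.047) and Tnfrsf11b (1.27, adjusted p = 0.066). Csf1r was then at 0.18 (adjusted p = 0.146) and Tnfrsf1b at 0.23 (adjusted p = 0.633). DESeq2 called 13 members, the same 8 with Tnfrsf11b, Csf2rb, Il15ra, Csf3r and Il4ra, while its calls over all genes were 1035 against 701.

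**Figure D5:**
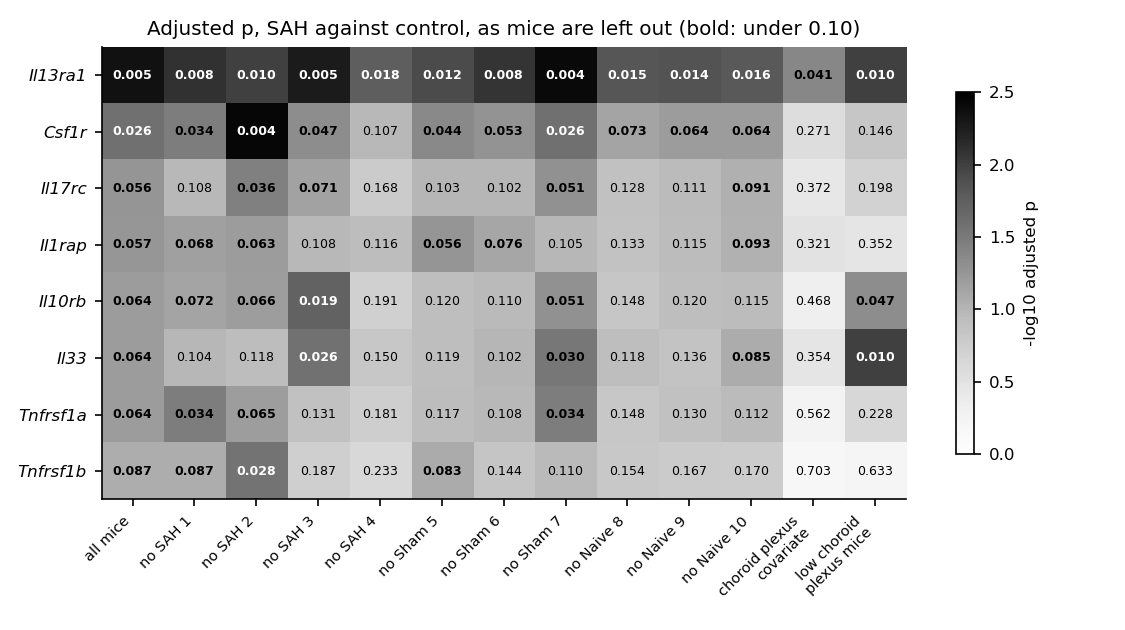
Adjusted p of the 8 members called in SAH against control, with all mice, with each mouse left out, with the choroid plexus markers as a covariate, and in the mice with low choroid plexus markers. Darker cells are smaller values and bold ones are under 0.10; the Il13ra1 row is bold throughout, and the other rows lose the call in at least 1 column.

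Of the 66 members kept out of the test, 18 were at 0 in all mice and 48 had at most 14 counts in any mouse. In a fit with no filter 0 of these 48 passed by edgeR's test, with 8 at an unadjusted p under 0.05. In none of the 48 did SAH and control mice separate without overlap. The smallest of these p-values was that of Il31ra, the receptor of IL-31, with 5, 8, 4 and 11 counts in the SAH mice, 3, 1 and 6 in the Sham mice and 3, 2 and 1 in the Naive mice (adjusted p = 0.149), followed by Il18rap, the signaling chain of the IL-18 receptor, with 5, 2, 11 and 7 counts in the SAH mice, 3, 4 and 0 in the Sham mice and 2, 1 and 3 in the Naive mice (adjusted p = 0.213). Tnf and Il1b had adjusted p-values of 0.314 and 0.250 in the same fit. The size of change that could be detected at these counts was not tested.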

How the data were processed

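RNA sequencing of bilateral whole hippocampus was analysed for 10 mice, 4 SAH, 3 Sham and 3 Naive, each a separate animal with 1 library. The authors aligned 50-base read pairs to mm9 with STAR (version not given in the sources used here) and counted fragments on exons per gene name with featureCounts 1.6.2, strand-specifically. The deposited values are raw counts, without normalization, and between 19743388 and 27254655 of them were available per mouse. No 2 libraries of the same group were alike within sampling noise, and no 2 libraries had identical counts. The authors' own lists of changed genes were not used. Coordinates are those of mm9.

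From the counts, edgeR 4.0.16 in R 4.3.3 was run with TMM scaling. Genes of low counts were left out by filterByExpr (at least 10 counts, 15 in total), quasi-likelihood p-values were adjusted by Benjamini-Hochberg over all tested genes, and the threshold was 0.10. SAH was fitted against Sham and Naive pooled, as the study pooled them, and pairs of groups were contrasted in a model of all 3. The study's own test was DESeq2's, run here (1.42.0) as an alternative. The standard error is the size of the log2 fold change divided by the square root of F. CPM and RPKM were computed here with the TMM factors and the deposited exon lengths. The fits were tested on simulated data. Promoter windows were read from the mm9 genome. The window of 1 called member is not reported here. Python 3.11.15 and matplotlib 3.10.9 were used for tables and figures.

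Members were named if called in any comparison, if prototypes of the families, if ligand or receptor partners of a called member, if among the 3 highest per length, or if among the 5 largest changes not called, and those named outside this rule are stated. The members, lists and tests were chosen with earlier results of these data known. Alternatives were DESeq2, its size factors or library size alone, no filter, 10 counts in every mouse, a threshold of 0.05, Sham and Naive averaged in the fit of 3 groups, a choroid plexus covariate and each mouse left out, with the mice of low choroid plexus markers added after the data were seen.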

Additional observations from a re-analysis of the deposited data

Results flagged for a closer look

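In 74 sets of values of named genes, SAH or control mice, 3 held a mouse far from the others of its group by Dixon's ratio, and chance alone flags about 1 in 20 such sets. Il13ra2 was 0.735 CPM in Sham mouse 6, against 0.0424 to 0.282 CPM in the other 5 control mice. Il1rap was 56.1 CPM in SAH mouse 3, where the other 3 SAH mice lay between 62.55 and 62.62 CPM. Lifr was 62.7 CPM in SAH mouse 3 against 53.0 to 54.6 CPM in the other SAH mice. SAH mouse 3 also had the highest sum of choroid plexus markers, 1270 CPM, and the part of that in these values was not tested.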

How the results depend on the processing

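No paired analysis was possible because the mice carry different numbers in the 3 groups (1 to 4, 5 to 7 and 8 to 10), so that no number is shared. In SAH against control 8 members were called. This became 2 at an adjusted p of 0.05, 13 with DESeq2, 1 with the choroid plexus covariate, 4 in the mice with low choroid plexus markers, and 2 to 12 with each mouse left out, while the calls over all genes went from 701 to 369, 1035, 169, 330 and 308 to 1093. In SAH against Sham 1 was called, which became 0 at 0.05 and 0 to 2 with each mouse left out. In SAH against Naive 6 were called, which became 2 at 0.05 and 1 to 8 with each mouse left out. In Sham against Naive the count was 0 in every fit. The remaining alternatives, size factors, library size, no filter, the count minimum and averaged controls, gave between 4 and 9 where 8 or 6 were called, and the median over all genes moved by less than 0.01 with the size factors or library size. For 37 named genes, 698 values, each of 1 gene in 1 alternative fit, were compared with the main fit. Of these, 587 kept both direction and side of the threshold, 75 lost the call, 17 gained it and 19 changed sign. No sign change was for a gene called in SAH against control. Sign changes with the choroid plexus covariate were Il16 (−0.030) and Lif (0.040), and in the mice with low choroid plexus markers Il16 (−0.034), Lifr (−0.048), Il17d (0.011) and Il18bp (−0.12). With each mouse left out the range crossed 0 for Il34 (−0.0047 to 0.082), Il16 (−0.031 to 0.042), Lif (−0.14 to 0.030), Lifr (−0.017 to 0.071), Il18bp (−0.0014 to 0.20) and Csf2ra (−0.13 to 0.086). The causes were not tested. Depth limits what can be said of Tnf, Il6 and Il1b, which had at most 9 counts in a library.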
